A study of Sus scrofa with 17 samples.

Results

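Chemokines are small secreted proteins that guide white blood cells through tissue. The RNA sequencing count table of pig right ventricular muscle was searched by symbol for 10 such genes, and 9 of them had a row, namely CCL2, CCL4, CCL5, CCL8, CCL19, CCL21, CXCL9, CXCL10 and CXCL12, out of 35670 rows. Each of the 9 had 1 row and passed the filter on low counts, and CXCL16 is not analysed here. All animals had right ventricular pressure overload and differed in dosing: the Multidose group (n = 7) received mononuclear cells of umbilical cord blood more than once, injected into the heart muscle, the Single dose group (n = 5) received them once, and the Vehicle control group (n = 5) received the carrier. Per the series text every library is a separate animal, and the labels give no cell number, time point, age, sex or batch for any of them.

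In humans and mice CXCL9 and CXCL10 are induced by interferon gamma and attract activated T and natural killer cells through the receptor CXCR3. CCL4 and CCL5 act on T cells and macrophages, and CCL2 and CCL8 call in monocytes, CCL2 through CCR2. CCL19 and CCL21 are the ligands of CCR7, by which T cells and dendritic cells travel to lymph nodes, and CCL21 is a product of lymphatic endothelium. CXCL12 holds and attracts CXCR4-bearing cells and is taken up by the scavenger receptor ACKR3; in heart muscle it is made by stromal and endothelial cells and is known from work on cell homing after injury.

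On the pig build Sscrofa11.1, by RefSeq positions matched by symbol, 4 members lie in the CC chemokine cluster of chromosome 12. These are CCL4 (ENSSSCG00000032343, 12:39479190-39480511), CCL5 (ENSSSCG00000017705, 12:39652731-39659121), CCL8 (ENSSSCG00000040648, 12:40740468-40741970) and CCL2 (ENSSSCG00000017723, 12:40798109-40800013). CCL21 (ENSSSCG00000038162, 10:32093783-32094482) and CCL19 (ENSSSCG00000010966, 10:32110366-32112529) are neighbours on chromosome 10. CXCL9 (ENSSSCG00000032777, 8:71665541-71670236) and CXCL10 (ENSSSCG00000032474, 8:71693641-71695948) are neighbours on chromosome 8, and CXCL12 (ENSSSCG00000034973, 14:91516383-91543857) stands apart on chromosome 14. How reads shared between related genes of a cluster were counted is not given in the sources used here, so the counts of CCL2, CCL4 and CCL8 are uncertain to that extent.

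Libraries held 21754800 to 61144663 counted reads. Multidose 1 to 4 and Single dose 1, 5 libraries in all, carry a name that starts with M1 in the count table, whereas the remaining 12 carry M8 or M9 names. Some names also end in the suffix _R. Among the M1 names only that of Multidose 4 does, and among the others all do but Multidose 5 and Vehicle control 3. The start and the suffix of the name therefore largely go together. What either encodes is unstated. M1 libraries were shallower, at 21754800 to 40969168 counts against 40621934 to 61144663, and Multidose 4 was the deepest of them. No control has an M1 name, so M1 names were compared within the dosed animals. Heart muscle genes marked the tissue as heart muscle, with TNNT2, cardiac troponin T, at 6670 to 11800 CPM (counts scaled to a common library total) in the 17 libraries. Since this is bulk tissue, fewer cells of a type and less RNA per cell cannot be told apart for any gene below.

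CXCL9 was low in the M1 libraries, with the smallest adjusted p of the 9 members. It read 67.0, 15.4, 19.85, 9.96 and 31.1 CPM in Vehicle control 1 to 5, and 4.14, 32.5, 22.2, 19.5 and 8.86 CPM in Single dose 1 to 5. In the Multidose group its lowest value was 2.50, its median 5.26 and its highest 23.2 CPM. The dosing groups overlapped, and the lowest 5 values of all 17 belonged to the 5 M1 libraries. These read 2.50, 3.81, 4.31, 5.26 and 4.14 CPM in Multidose 1 to 4 and Single dose 1, against 8.86 to 67.0 CPM (median 19.65) in the 12 others. With dosing group in the model, CXCL9 fell in the M1 libraries, where its log2 fold change against M8 and M9 names was -2.23 with an SE of 0.46 (adjusted p = 0.00743, edgeR's quasi-likelihood test with Benjamini-Hochberg adjustment over 15884 genes). That call held with any 1 of the 17 libraries left out, at -2.35 to -2.09, and within the Multidose group alone at -2.18 (adjusted p = 0.0108, edgeR).

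CCL5 followed the same split. It read 47.4, 18.5, 22.2, 12.6 and 32.1 CPM in Vehicle control 1 to 5 and 6.67, 19.6, 14.1, 15.9 and 17.6 CPM in Single dose 1 to 5. In the Multidose group its lowest value was 2.71, its median 9.59 and its highest 29.5 CPM. The M1 libraries were again the lowest 5, at 2.71, 9.59, 6.88 and 9.58 CPM in Multidose 1 to 4 and 6.67 CPM in Single dose 1, below the 12.6 CPM of the lowest M8 or M9 library. CCL5 fell in the M1 libraries, with a log2 fold change of -1.41 and an SE of 0.36 (adjusted p = 0.0172, edgeR). The call was lost without Single dose 1 (-1.44, adjusted p = 0.0587, edgeR), without Multidose 5 (-1.14, adjusted p = 0.0615, edgeR) and in the Multidose libraries alone (-1.44, adjusted p = 0.0831, edgeR).

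CCL21 and CXCL12 lay in the opposite direction. CCL21 read 17.7, 33.7, 15.9, 12.2 and 29.9 CPM in Vehicle control 1 to 5 and 65.5, 47.1, 25.7, 23.2 and 82.3 CPM in Single dose 1 to 5. In the Multidose group its lowest value was 19.3, its median 64.8 and its highest 120 CPM. All 5 M1 libraries stood at 64.8 CPM or above, and among the M8 and M9 libraries Single dose 5 reached into their range. CCL21 rose in the M1 libraries by 1.45 (SE 0.40, adjusted p = 0.0246, edgeR). The call was lost without Multidose 1 (1.29, adjusted p = 0.0501), without Multidose 5 (1.26, adjusted p = 0.0757) and without Multidose 6 (1.35, adjusted p = 0.0765, all by edgeR). Within the Multidose group alone it held, at 1.80 (adjusted p = 0.0159, edgeR).

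CXCL12 read 174.3, 69.0, 168.5, 11.7 and 99.7 CPM in Vehicle control 1 to 5 and 207.8, 69.5, 138.5, 110.9 and 88.4 CPM in Single dose 1 to 5. In the Multidose group its lowest value was 22.95, its median 180.6 and its highest 321.7 CPM. The 5 M1 libraries, at 321.7, 268.6, 287.9 and 180.6 CPM in Multidose 1 to 4 and 207.8 CPM in Single dose 1, were the highest 5 of all 17, and Vehicle control 4 and Multidose 5 were the lowest. CXCL12 rose in the M1 libraries by 1.83 (SE 0.55, adjusted p = 0.038, edgeR). This call was the least steady, and removing a single library ended it in 9 of 17 cases. Those libraries were Multidose 1, 2, 3, 5, 6 and 7 and Single dose 1, 2 and 5, with log2 fold changes of 1.50 to 2.15 and adjusted p of 0.0504 to 0.0864 by edgeR. Within the Multidose group alone CXCL12 was called, at 2.15 (adjusted p = 0.0337, edgeR).

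CXCL10 varied most. It read 65.8, 21.45, 24.5, 227.3 and 48.15 CPM in Vehicle control 1 to 5 and 17.4, 31.8, 28.7, 28.25 and 16.0 CPM in Single dose 1 to 5. In the Multidose group its lowest value was 7.07, its median 12.6 and its highest 539.1 CPM. The highest value belonged to Multidose 5 and the second highest to Vehicle control 4, and the 4 M1 libraries of the Multidose group held the lowest 4 values. The log2 fold change of M1 against M8 and M9 libraries was -2.88 (SE 0.98), with an adjusted p of 0.0614 by edgeR. It stood at -0.93 (adjusted p = 0.291, edgeR) without Multidose 5, and passed without Single dose 1 (-4.29, adjusted p = 0.0358, edgeR) or without Multidose 7 (-3.04, adjusted p = 0.0464, edgeR).

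**Figure D1:**
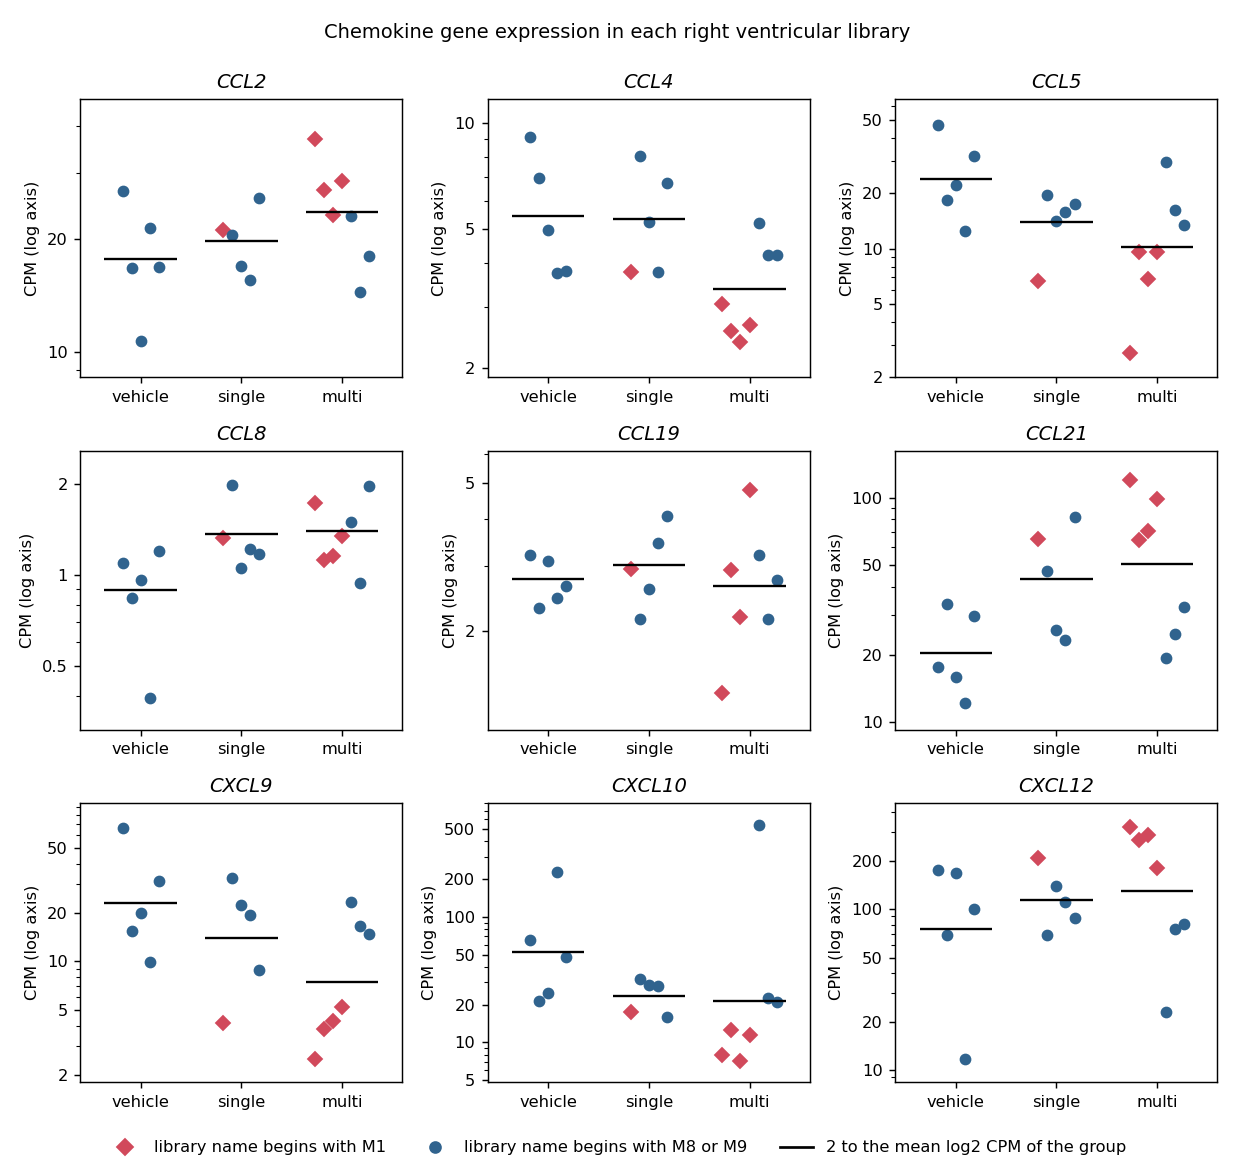
Expression of the 9 chemokine genes in each library, in CPM on a log axis, for Vehicle control (n = 5), Single dose (n = 5) and Multidose (n = 7) animals. Each point is 1 animal, diamonds mark the 5 libraries with M1 names, and bars mark 2 to the power of the group's mean log2 CPM; the diamonds are the lowest 5 points for CXCL9 and CCL5 and the highest 5 for CXCL12.

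The other 4 members were not called for M1 names by edgeR. CCL4, an attractant of T cells and macrophages, ranged from 2.37 to 3.77 CPM in M1 libraries and from 3.73 to 9.13 CPM in the others, so that the ranges met only at Single dose 1 and the lowest M8 and M9 libraries. The fitted value for CCL4 was -0.73 on the log2 scale (SE 0.25, adjusted p = 0.0582, edgeR). CCL4 was called by DESeq2 (-0.73, adjusted p = 0.0348) and, by edgeR, without Vehicle control 1, Single dose 4 or Vehicle control 4 (adjusted p = 0.0365, 0.0428 and 0.0473). CCL2, the monocyte attractant, ranged from 21.2 to 37.0 CPM in M1 libraries against 10.7 to 26.75 CPM, with a value of 0.48 (SE 0.22, adjusted p = 0.158, edgeR), and was called by limma-voom (0.53, adjusted p = 0.0259). CCL8, another monocyte attractant, was counted 21 to 98 times per library, and stood at -0.10 (SE 0.30, adjusted p = 0.851, edgeR). CCL19, which shares its receptor and its place on chromosome 10 with CCL21, read 1.355 to 4.79 CPM in M1 libraries and 2.15 to 4.08 CPM in the others, with a value of 0.03 (SE 0.27, adjusted p = 0.953, edgeR). Its highest and its lowest value of all 17, in Multidose 4 and Multidose 1, were both from M1 libraries.

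In all, 4 of 9 members passed for M1 names, 2 higher (CCL21 and CXCL12) and 2 lower (CXCL9 and CCL5). Of the 15884 genes tested, 2220 passed, or 14.0%, with 5.92% higher and 8.06% lower. The median log2 fold change of the 9 was -0.10, against -0.01 for all genes. Against the 7 dosed M8 and M9 libraries, 1 member (CXCL12) lay wholly above and 3 (CCL4, CCL5 and CXCL9) wholly below, CCL4 by less than the printed precision, since Single dose 1 and Single dose 4 both read 3.77 CPM. Of all genes, 4.19% lay above, 5.12% below and 9.32% either way. Against all 12 such libraries, 1 member lay above and 2 below, where the shares of all genes were 2.73%, 3.01% and 5.74% in all. With every library thinned to the total of the shallowest, the 4 calls held and CCL4 passed as well (-0.75, adjusted p = 0.0437, edgeR).

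The dosing comparisons gave no call by edgeR. For multiple doses against vehicle, for a single dose against vehicle and for multiple against single doses, 0 of 9 members and 0 of 15884 genes (0%) had an adjusted p under 0.05 by edgeR. At an unadjusted p under 0.05 there were 1997 genes (12.6%), 836 (5.26%) and 335 (2.11%). Counts past the adjusted threshold were 8, 10 and 0 by DESeq2 and 0, 0 and 0 by limma-voom. The 8 genes included 1 member, CXCL10, called lower by DESeq2 after multiple doses (-2.34, adjusted p = 0.0452). That call came with outlying counts replaced, and was lost without that replacement. Only groups of 7 or more libraries were open to replacement, so Multidose counts were and control counts were not. No member's dosed group lay wholly above or below the controls in either comparison with vehicle, where 0.271% of all genes did so after multiple doses (0.145% above, 0.126% below) and 0.875% after a single dose (0.422% above, 0.453% below). Both comparisons use the same 5 controls.

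Multiple doses against vehicle gave 5 of 9 members at an unadjusted p under 0.05 by edgeR, 2 higher (6.74% of all genes) and 3 lower (5.83%), beside the 12.6% of all genes in either direction. CCL21 stood 1.49 (SE 0.47) higher, with a mean of 61.6 ± 38.5 CPM (SD, n = 7) where the controls had 21.9 ± 9.35 CPM (SD, n = 5) and an adjusted p of 0.366 by edgeR. CCL8 stood 0.64 (SE 0.28) higher. CXCL9 had a value of -1.50 (SE 0.59), CCL5 of -1.07 (SE 0.43) and CCL4 of -0.72 (SE 0.27). Adjusted p of these 4 lay between 0.370 and 0.387 by edgeR. Since 4 of the 7 Multidose libraries and no control have M1 names, the name and the dosing group cannot be fully told apart. With the M1 name as a term the values shrank to 0.43 for CCL21, -0.64 for CXCL9, -0.45 for CCL5 and -0.36 for CCL4. CCL8 kept its value at 0.69 (SE 0.32) and was the 1 member of 9 left at an unadjusted p under 0.05, beside 3.82% of all genes. CXCL12 went from 0.76 (SE 0.61) to -0.62 (SE 0.59) with that term.

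A single dose against vehicle gave 1 of 9 members at an unadjusted p under 0.05 by edgeR, beside 5.26% of all genes (2.42% higher, 2.84% lower). That member was CCL21, at 48.75 ± 25.5 CPM (SD, n = 5), with a value of 1.15 (SE 0.49, adjusted p = 0.891, edgeR). It stood at 0.89 (SE 0.37) with the M1 term, again the 1 member of 9 at an unadjusted p under 0.05 (4.76% of all genes), and at 1.02 (SE 0.38) in the M8 and M9 libraries alone, where the value for multiple doses was 0.21 (SE 0.42). Multiple against single doses gave CCL4 alone, at -0.67 (SE 0.27, adjusted p = 1 by edgeR), beside 2.11% of all genes (1.22% lower), and -0.43 (SE 0.24) with the M1 term, where 0 of 9 members were left at an unadjusted p under 0.05 (2.37% of all genes). CXCL10 had the widest errors, at 0.20 (SE 1.01) for multiple doses and -1.66 (SE 1.12) for a single dose against vehicle. The first of these stood at -2.48 (adjusted p = 0.253) without Multidose 5 and at 1.14 (adjusted p = 0.694) without Vehicle control 4 by edgeR.

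**Figure D2:**
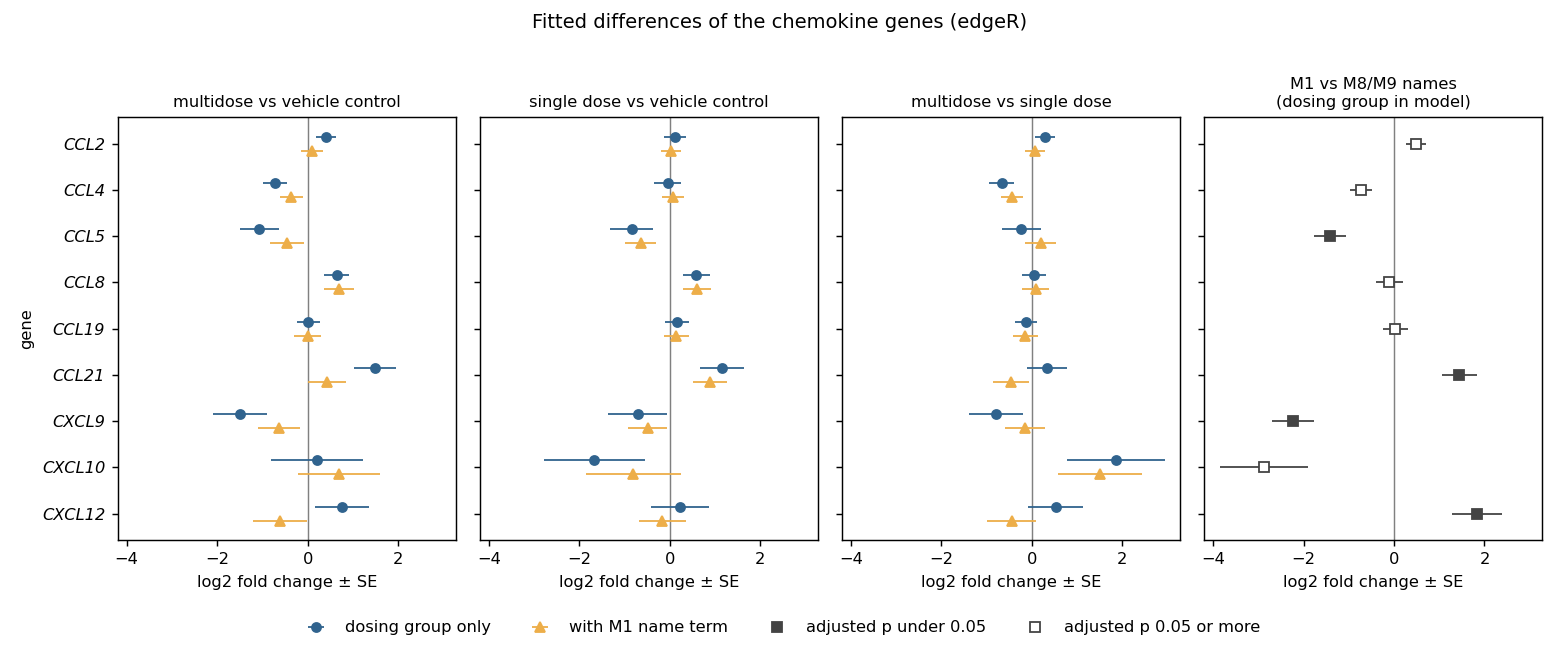
Log2 fold changes of the 9 chemokine genes with their standard errors from edgeR, for the 3 dosing comparisons without (circles) and with (triangles) a term for M1 library names, and for M1 against M8 and M9 names (squares, filled where the adjusted p is under 0.05). No dosing value passed; CXCL9 and CCL5 lie to the left and CCL21 and CXCL12 to the right as filled squares.

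Among animals of the same dosing group, several members were more variable than most genes. The SD of log2 CPM within groups was 1.6 for CXCL10, 1.29 for CXCL12 and 1.17 for CXCL9, which placed them at percentiles 99.2, 98.0 and 97.1 of the 15884 genes. CCL5 and CCL21 followed at 0.87 and 0.86, while CCL2, CCL4, CCL8 and CCL19 lay between 0.42 and 0.49, and the median gene had 0.345. The difference between M1 and other names enters these SDs. Over the M8 and M9 libraries alone, dosing groups pooled, CXCL10, CXCL12 and CXCL9 lay at percentiles 99.4, 97.7 and 91.1. CCL21 and CCL5 lay at 89.1 and 79.8 there. In the controls alone, which have no M1 names, CXCL12 spread from 11.7 to 174.3 CPM and CXCL10 from 21.45 to 227.3 CPM, while CCL19 stayed between 2.31 and 3.20 CPM. These percentiles describe the libraries and were not tested.

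Multidose 5 and Vehicle control 4 stood apart from the rest in CXCL10 and CXCL12. Multidose 5 had 539.1 CPM of CXCL10 and 22.95 CPM of CXCL12, and Vehicle control 4 had 227.3 and 11.7 CPM. The pair differed in other interferon gamma genes, some chosen after their values were seen. GBP1 and TAP1, an interferon-induced GTPase and a peptide transporter of antigen presentation, read 152.5 and 243.2 CPM in Multidose 5, against medians of 36.2 and 40.5 CPM. CXCL11, the third CXCR3 ligand, was highest in Multidose 5 at 3.97 CPM and read 0.431 CPM in Vehicle control 4, whereas CXCL9 read 23.2 and 9.96 CPM there. The 17 listed interferon gamma genes summed to 973.4 CPM in Multidose 5, whereas the sums of the other 16 libraries ran from 383.9 to 641.2 CPM, with Vehicle control 4 at 490.2 CPM. Leaving out both libraries, which was chosen after seeing the data, gave M1 log2 fold changes of -2.09 for CXCL9, -1.14 for CCL5 and 1.50 for CXCL12, all called (adjusted p = 0.0137, 0.0401 and 0.00976, edgeR). CCL21 was not called there (1.26, adjusted p = 0.0682, edgeR).

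**Figure D3:**
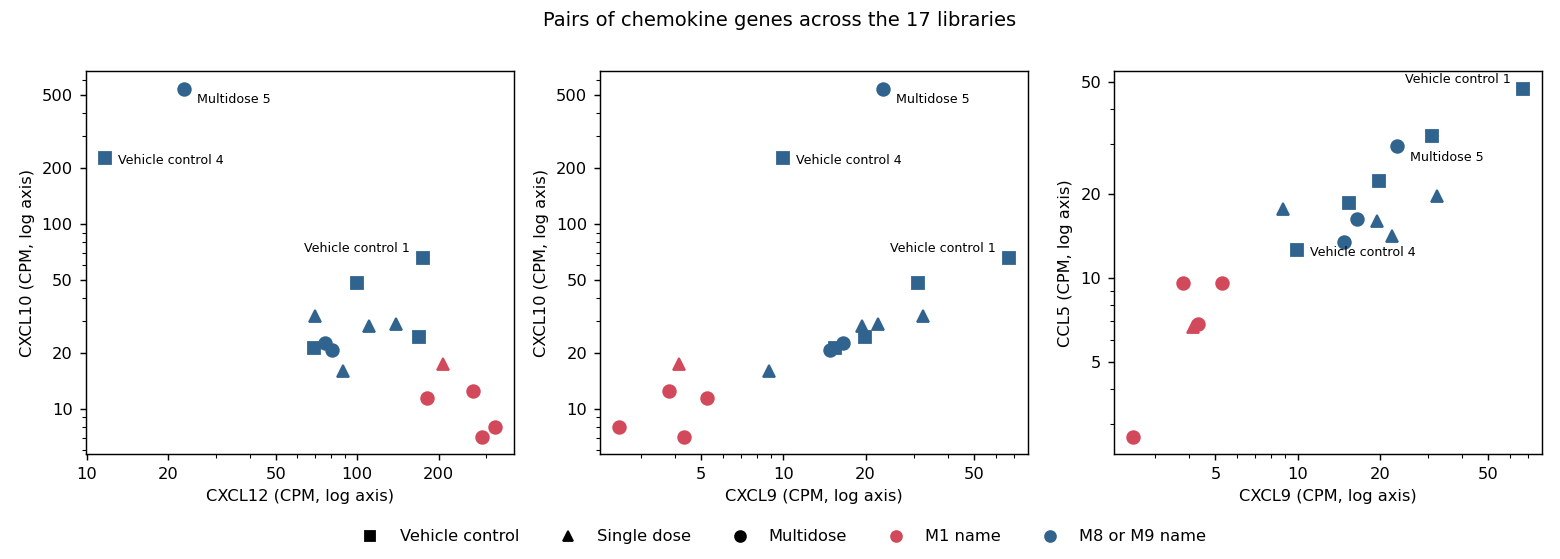
CXCL10 against CXCL12, CXCL10 against CXCL9 and CCL5 against CXCL9 in the 17 libraries, in CPM on log axes, with dosing groups by shape and library names by colour. Multidose 5 and Vehicle control 4 sit far above the others in CXCL10, at 539.1 and 227.3 CPM, and the 5 M1 libraries sit at the low end of CXCL9 and CCL5.

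Whether members varied together was examined in the 12 M8 and M9 libraries only, so that differences between M1 and other names did not enter. Dosing groups were pooled, so differences between them do enter these values. Of 36 pairs, 0 passed an adjusted permutation p of 0.05. The closest was CCL5 with CXCL9, at Pearson's r = 0.785 (permutation p = 0.00239, adjusted p = 0.086) and Spearman's rho = 0.72 (permutation p = 0.011, adjusted p = 0.397), and r was 0.454 without Vehicle control 1 and 5. CXCL10 and CXCL12 had r = -0.723 (permutation p = 0.0176, adjusted p = 0.316) but rho = -0.147, and r was 0.497 without Multidose 5 and Vehicle control 4, so the negative relation rested on those 2 libraries. CCL21 and CXCL10 had r = -0.578 and rho = -0.594 (permutation p = 0.0539 and 0.0448, adjusted p = 0.647 and 0.538), with r = -0.369 without Single dose 5 and Vehicle control 4. The neighbours CCL19 and CCL21 had r = 0.15, and the neighbours CXCL9 and CXCL10 had r = 0.144 with rho = 0.608 (permutation p = 0.643, 0.632 and 0.0399).

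The genes with the most similar order of levels over the same 12 libraries were sought among 11424 genes by Spearman's rho, as a description. For CCL5 they were CD2, a T cell adhesion receptor (rho = 0.965), SLA-DQB1, a class II histocompatibility gene (0.923), and MYO1G, a myosin of blood cells (0.888). For CXCL10 they were B2M, the light chain of class I molecules (0.902), ABHD3 (0.888) and MBNL1, a splicing regulator (0.881). For CXCL12 they were BCAR3 (0.902), PHF20L1 (0.895) and EFNB2, an ephrin of arterial vessels (0.888). For CCL19 they were SOD3, extracellular superoxide dismutase (0.902), ISLR (0.881) and FZD2, a Wnt receptor (0.86). For CCL21 they were DNAJC30 (0.888), GAMT, a creatine synthesis enzyme (0.881), and ZNF32 (0.874). These rho values rest on 12 points that also differ in library depth. Each was picked as among the highest of 11424, which by itself favours high values, and none was tested.

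Of 26 other chemokine ligands listed, 18 had a row and 12 were tested. None was called for dosing, and 4 of 12 were called for M1 names, 1 higher and 3 lower, beside the 14.0% of all genes. CX3CL1, the membrane-bound ligand fractalkine, fell by 1.26 (SE 0.23, adjusted p = 0.00335, edgeR). It read 12.75, 20.7, 17.2 and 16.2 CPM in Multidose 1 to 4 and 14.3 CPM in Single dose 1, below the 22.45 to 65.6 CPM of the M8 and M9 libraries. CXCL11 fell by 3.12 (SE 0.68, adjusted p = 0.00823, edgeR), with 3 to 7 counts in each M1 library and 20 to 153 in each of the others. CCL22, a ligand of CCR4, fell by 2.98 (SE 0.72, adjusted p = 0.0131, edgeR) on 0 to 3 counts per M1 library and 5 to 28 in the others. CCL26, an eosinophil attractant in humans, rose by 3.68 (SE 0.78, adjusted p = 0.00754, edgeR), at 8 to 44 counts per M1 library and 1 to 21 in the others. These 4 calls held with any 1 library left out. CXCL11, like CXCL9 and CXCL10, signals through CXCR3.

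Of 22 receptor genes listed, 19 had a row and 13 were tested, and none was called for dosing. CCR2, the receptor of CCL2, was the 1 of 13 called for M1 names, a share below the 14.0% of all genes, and rose by 0.83 (SE 0.23, adjusted p = 0.0265, edgeR). It read 7.07, 9.05, 8.82 and 15.8 CPM in Multidose 1 to 4 and 10.6 CPM in Single dose 1, against 4.03 to 9.44 CPM, and the call was lost without Multidose 5, 6 or 7 (adjusted p = 0.059, 0.060 and 0.068, edgeR). CXCR3, the receptor of CXCL9 and CXCL10, read 0.0484 to 0.806 CPM in the 17 libraries, with an M1 value of -0.38 (SE 0.63). CXCR4, the receptor of CXCL12, stood at 0.07 (SE 0.31) and CCR7, the receptor of CCL19 and CCL21, at -0.80 (SE 0.46), with adjusted p of 0.899 and 0.252 by edgeR. ACKR3 had an M1 value of -0.63 (adjusted p = 0.247, edgeR) and was called without Vehicle control 4 (-0.62, adjusted p = 0.0122, edgeR).

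Multiple doses against vehicle gave 6 of 13 receptor genes at an unadjusted p under 0.05 by edgeR, all lower, beside the 12.6% of all genes. With the M1 term it gave 2 of 13, both lower (3.82% of all genes), and a single dose against vehicle gave 1 higher and 3 lower of 13 (5.26% of all genes). The 6 were CXCR6, XCR1 and the 4 atypical receptors ACKR1, ACKR2, ACKR3 and ACKR4, which bind chemokines without classical signalling. The atypical receptors were high in Vehicle control 4, at 11.08, 98.6, 136.7 and 8.62 CPM, against at most 3.20, 22.1, 39.2 and 2.01 CPM in the other controls. Their values of -1.03, -1.10, -0.95 and -1.01 stood at -0.32, -0.17, -0.24 and -0.01 without that library, the one that also had little CXCL12.

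**Figure D4:**
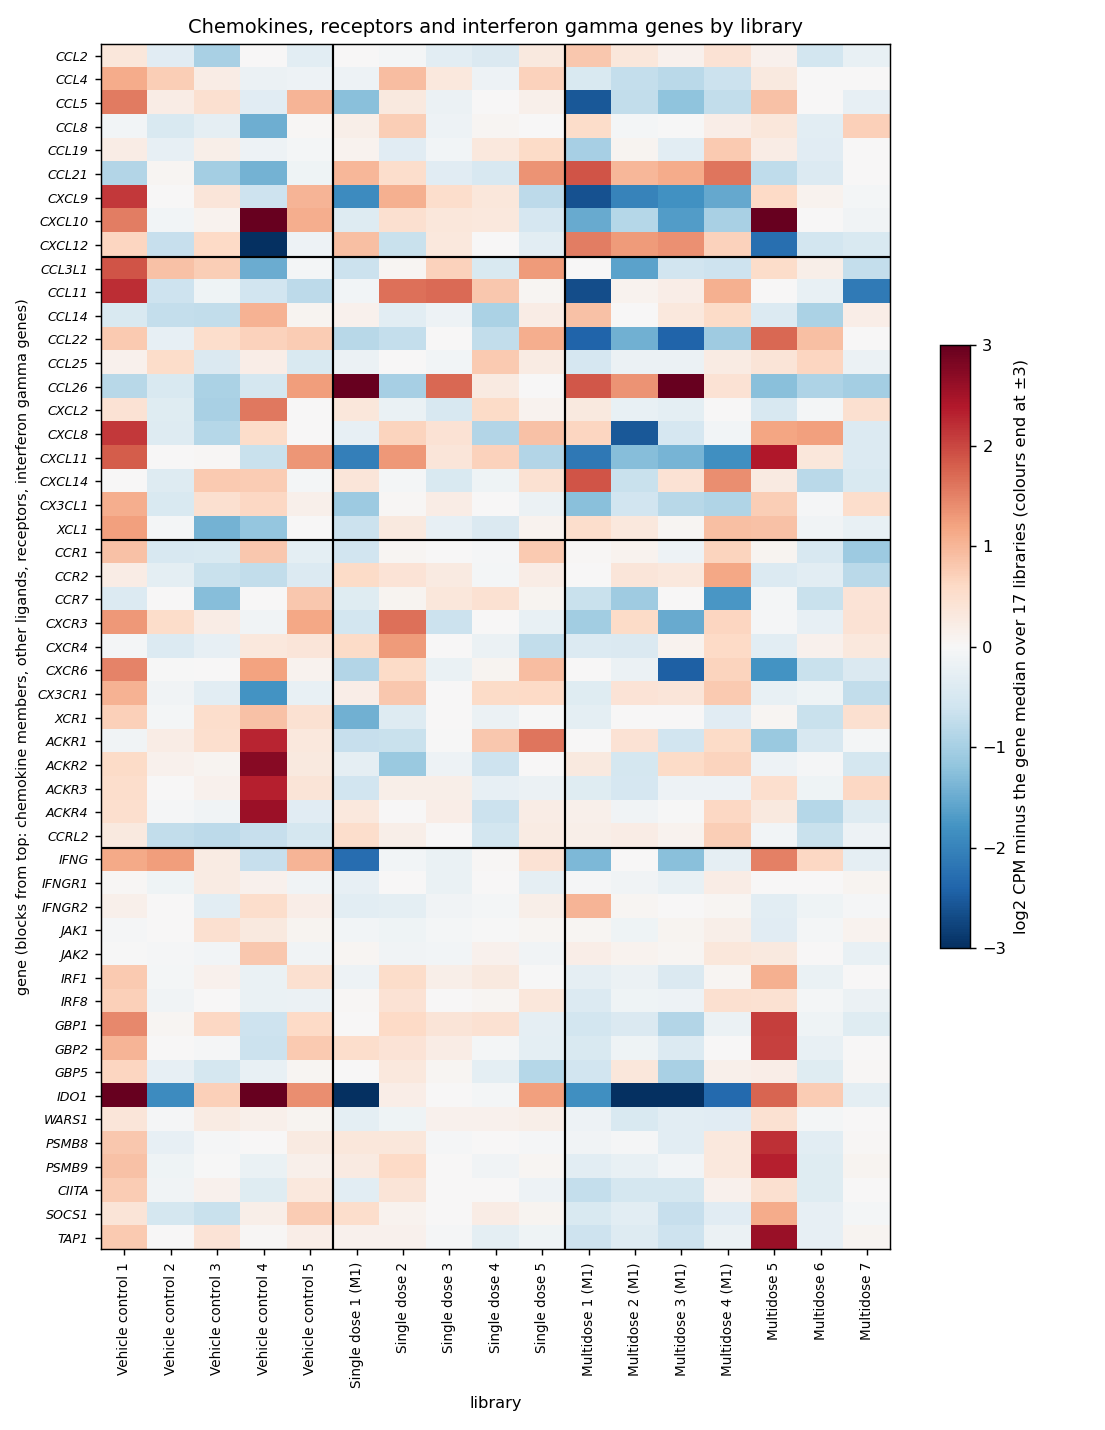
Log2 CPM of each gene minus its median over the 17 libraries, for the 9 chemokine genes, the tested other ligands, the tested receptors and the interferon gamma genes (rows) by library (columns, M1 names marked). CXCL9, CXCL11 and IDO1 are low in the M1 columns, Multidose 5 is high in CXCL10 and TAP1, and Vehicle control 4 is high in CXCL10 and ACKR1 to ACKR4.

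Some genes of other groups were called for M1 names, and their part in the chemokine values was not tested. The counts below stand beside the 14.0% of all genes called for M1 names, 5.92% higher and 8.06% lower, and several lists lie near or below these shares. Of 17 interferon gamma genes, 0 rose and 2 fell, namely IDO1, a tryptophan-degrading enzyme (-4.69, SE 1.16), and WARS1, a tryptophan tRNA ligase (-0.44, SE 0.11), with adjusted p of 0.0156 and 0.0188 by edgeR. IFNG itself stood at -1.93 (SE 0.63, adjusted p = 0.0502, edgeR). Both IDO1 and IFNG were near the floor, with 0 counts in Single dose 1, an M1 library. The next lowest Single dose library read -1.14 log2 CPM for IDO1 and -2.34 for IFNG. Of 12 genes of the NF-kB pathway, a route of inflammatory gene induction, 0 rose and 3 fell: RELA (-0.40), RELB (-0.54) and NFKB2 (-0.28), with adjusted p of 0.0203, 0.0225 and 0.0429 by edgeR. Of 9 genes that trim, shed or present chemokines, SDC2, a heparan sulfate carrier, rose by 0.67 and NDST1, a heparan sulfate enzyme, fell by 0.51. None of the genes of these 3 lists was called for dosing.

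T and natural killer cell markers numbered 21, of which 5 fell (CD3D, CD3E, CD5, CD6 and CD8B) and 1 rose (KLRB1), some of them named after their values were seen. The fall of CD8B was 2.18 (SE 0.49, adjusted p = 0.00944, edgeR), a gene at only 0.0423 to 1.22 CPM in the 17 libraries. The remaining markers of this list, CD2, CD4 and CD8A among them, were not called. The markers summed to 26.4 to 44.0 CPM (median 36.5) in M1 libraries and to 34.1 to 110.7 CPM (median 59.7) in the others. Of 7 lymphatic endothelial markers, RELN rose by 1.34 (SE 0.30, adjusted p = 0.00995, edgeR), PROX1 read 4.20 to 23.9 CPM in the 17 libraries and TFF3, which was not tested, was at 0 in all 17. These markers summed to 111.0 to 189.3 CPM in M1 libraries and to 71.55 to 162.5 CPM in the others. Of 12 fibroblast markers, 4 rose (PDGFRA, COL3A1, DCN and DPT) and 1 fell (MEOX1), and the list summed to 5153 to 9041 CPM against 3164 to 7173 CPM. None of 15 macrophage and monocyte markers was called, with sums of 373.7 to 587.7 CPM against 326.6 to 779.7 CPM. In the remaining lists CADM1 rose among 7 dendritic cell markers, TEK rose among 12 vascular endothelial markers and DES fell among 9 mural cell markers. DES read 4540 to 17800 CPM, far above the rest of the mural list, in which RGS5 came next at 126 to 416 CPM. Which cells the DES reads came from was not tested. None of 7 B and plasma cell, 1 neutrophil and 11 cardiomyocyte markers was called. The neutrophil genes MPO and ELANE were at 0 in 16 and 15 libraries, whereas CSF3R, the 1 tested, read 0.627 to 6.75 CPM. The neutrophil list summed to 13.41 CPM in Vehicle control 4, the highest of the 17 libraries. No marker of any list was called for dosing.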

How the data were processed

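Raw counts per Ensembl gene were deposited by the authors for 17 libraries of right ventricular tissue, made from total RNA sequenced on an Illumina instrument, per the labels' protocols. FastQC 0.11.7, Trimmomatic 0.33, HISAT2 2.1.0, SAMtools 1.7, Subread 1.6.2 and the build Sscrofa11.1 are named, per the submitters' processing notes. Neither strandedness nor an annotation version is named there, so reads of antisense partners cannot be told apart. Depth was 21754800 to 61144663 counts per library, and all values carry counting error.

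In R 4.3.3, genes with low counts were removed with edgeR 4.0.16 (filterByExpr by group), which left 15884 of 35670. TMM scaling and a robust quasi-likelihood fit to all 17 libraries followed, with a coefficient per dosing group. M1 names were tested in the same fit with an added term. Tests were two-sided, with Benjamini-Hochberg adjustment over all genes tested and a threshold of 0.05. Log2 fold changes give the first-named group over the second, and the SE comes from the fold change and its F statistic. CPM uses TMM-scaled totals, and log2 CPM has a prior count of 2. Pairs were tested by permutation with 100000 resamples. The pipeline was tested on simulated data.

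Some listed genes are not reported here. The members and lists were chosen with earlier results of these data known. Named genes are all members, listed ligands and receptors, the 3 genes with the smallest p of each other list, and the 3 genes most like CCL5, CCL19, CCL21, CXCL10 and CXCL12 among named genes averaging 1 CPM or more. Others are said to be chosen after their values were seen, or belong to a count of 5 or fewer. Symbols are those of the table, in which 18030 rows have none, and positions are from RefSeq. Replicate numbers were not used as pairs. Deviations of same-numbered animals from their group means had r between -0.218 and 0.407 over 15 pairs, 4 over 0.1. The highest was for Multidose 1 with Single dose 1, both M1 libraries. No differently numbered pairs are given for comparison, so this does not settle whether the numbers pair animals. Alternatives were RLE and upper-quartile scaling, no filter on low counts, a floor of 1 CPM in 5 libraries, a non-robust fit, DESeq2 1.42.0, limma-voom (limma 3.58.1), thinning, a replicate block, the name suffix or M1 name as a covariate, fewer groups or libraries, and each library left out.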

Additional observations from a re-analysis of the deposited data

Results flagged for a closer look

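A library was picked out where its gap to the nearest of its dosing group exceeded Dixon's critical value. Chance does so in about 1 of 20 groups, and 22 of 153 groups (51 genes in 3 dosing groups) were picked, with 1 of 27 for the chemokine members. Values are log2 CPM and causes were not tested.

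The 1 member was CXCL10 in Multidose 5, at 9.08 against 4.51 in the next library. Multidose 5 was also highest of its group for TAP1 (7.93), GBP1 (7.25), PSMB8 (6.93), GBP2 (5.87), PSMB9 (5.62), IRF1 (5.60) and SOCS1 (2.69), which are interferon signalling and antigen presentation genes of 1 list.

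Vehicle control 4 was highest of the controls for the atypical receptors ACKR3 (7.10), ACKR2 (6.63) and ACKR1 (3.48) and for the kinase JAK2 (4.61). Vehicle control 1 was highest for IRF8 (3.88), CCRL2 (1.03) and CCL11 (0.44), Vehicle control 5 for CCL26 (-1.25), and Vehicle control 2 was lowest for CCL22 (-2.25). In the Single dose group, Single dose 1 was lowest for IFNG (-4.42), IDO1 (-4.42) and XCR1 (-2.12), where IFNG and IDO1 had 0 counts, and Single dose 2 was highest for CXCR3 (-0.23). Multidose 1 was highest of its group for IFNGR2 (6.61).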

How the results depend on the processing

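For multiple doses against vehicle, 0 genes passed by edgeR, against 8 by DESeq2, 1 by DESeq2 without replacement of outlying counts (added after seeing the data) and 1 with the replicate block. For a single dose against vehicle, DESeq2 gave 10 genes in both forms. For M1 names, 2220 genes passed, against 4525 by limma-voom, 11 with the replicate block, 3783 without dosing group in the model and 723 in Multidose libraries alone. With 1 library left out the counts ranged over 0 to 0 for multiple doses, 0 to 1 for a single dose, 0 to 1 for multiple against single doses and 858 to 2745 for M1 names, the lowest without Single dose 1, then 1247 without Multidose 6 and 1450 without Multidose 5. The 4 member calls for M1 names were lost with the replicate block, a fit with a term for each replicate number. CXCL9 stood there at -3.01, CCL5 at -1.66, CCL21 at 1.99 and CXCL12 at 1.79 (adjusted p of 0.118 to 0.405, edgeR). The calls of CCL21 and CXCL12 were also lost without a filter on low counts, and that of CXCL12 with the name suffix as a covariate.

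CXCL10 turned negative for multiple doses against vehicle by DESeq2 (-2.34, adjusted p = 0.0452; not called without replacement of outlying counts), limma-voom (-1.68), the replicate block (-1.39), the name suffix (-0.94) and without both Multidose 5 and Vehicle control 4 (-1.52, added later). Its value for multiple against single doses turned to -0.66, -0.80, -0.25 and -0.81 by DESeq2, limma-voom, the block and without both libraries. The cause was not tested.

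With the M1 name as a covariate, or in M8 and M9 libraries only, CXCL12 turned to -0.62 and -0.81 for multiple doses, -0.17 and -0.043 for a single dose, and -0.45 and -0.77 for multiple against single doses. Likewise CCL5 turned to 0.20 and 0.22 and CCL21 to -0.46 and -0.81 for multiple against single doses, CCL4 to 0.073 and 0.052 for a single dose, and CCL19 to -0.001 and -0.036 for multiple doses. In M8 and M9 libraries only, CCL2 turned to -0.014 for multiple doses and -0.10 for multiple against single doses. Values near 0 also changed sign: CCL19 for multiple doses by limma-voom (-0.043), thinned (-0.034) and without both libraries (-0.05); CCL4 for a single dose by limma-voom (0.042); CCL8 for M1 names by limma-voom (0.082) and without dosing group (0.17); CCL2 for M1 names with the block (-0.009); and CXCL12 for a single dose without both libraries (-0.049).

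With 1 library left out, signs changed within these ranges: CXCL10 from -2.48 to 1.14 for multiple doses and -0.81 to 2.06 for multiple against single doses; CXCL12 from -0.049 to 0.49, CCL4 from -0.22 to 0.18 and CCL2 from -0.03 to 0.28 for a single dose; CCL8 from -0.058 to 0.23 for multiple against single doses and -0.25 to 0.078 for M1 names; and CCL19 from -0.17 to 0.13 for multiple doses, -0.32 to 0.00 for multiple against single doses and -0.23 to 0.19 for M1 names. None of these values was called. The count of M1-called receptors ranged over 0 to 2.

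Some members gained a call for M1 names: CCL4 by DESeq2 (-0.73), thinned (-0.75) and without dosing group (-0.93); CXCL10 with the 1 CPM floor (-2.87), the non-robust fit (-2.88), the name suffix (-3.30) and without dosing group (-2.98); and CCL2 by limma-voom (0.53) and without dosing group (0.53). Member values and counts of called ligands and receptors were tallied together. Of these, 590 kept their direction and call, or a like count, under other settings, and 701 did so with 1 library left out. Among the member values 10 and 5 gained and 9 and 14 lost a call. Depth limits CCL8 and CCL19 most, with as few as 21 and 32 counts in a library, and 5 M1 animals, 1 of them with a single dose, limit the name comparison.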
